A study of Mus musculus with 6 samples.

Results

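Transcripts of 7 genes for RNA-binding proteins held 375 of the 23380 contact sites of JARID2 listed for untreated mouse embryonic stem cells and 72 of the 5348 listed after retinoic acid. The genes are Hnrnpu, Hnrnph1, Npm1, Sfpq, Igf2bp1, Rbm4 and Rbm14. They were taken as 6 windows of the mm9 genome on the sense strand, Rbm4 and Rbm14 sharing 1 window, and every site wholly inside a window was counted. The windows were chosen by the number, spread and scores of sites in these same lists, so those values are given as a description, with no test. In the GENCODE M21 annotation, which is of a later build and was used for names and strand only, all 7 genes lay on the chromosome and strand of their window.

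The cells were of the wild-type mouse stem cell line E14, grown with serum and LIF and either left untreated or given 2 µM retinoic acid for 24 h to start differentiation. All of them were pulsed with 500 µM 4-thiouridine for 2 h, irradiated at 312 nm with 400 mJ/cm2 and lysed for immunoprecipitation of JARID2 with an antibody made in-house. This assay, PAR-CLIP, fixes a protein to the RNA it touches at the thiouridines. There were 3 libraries per condition, but each deposited list is named for its 3 libraries together, so every value below comes from 1 pooled list per condition, with no spread between replicates and no test between conditions. Each site has a position, a strand and a whole-number score from the authors, but no label or header says what that score counts, so the read depth is unknown. Intervals are exact 95% intervals that take each site as 1 independent count, and they cover counting error only. Sites on 1 transcript are not independent, so these intervals are too narrow. The identity of the cells was not checked by marker genes, since no mm9 gene positions were used.

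JARID2 is a partner of Polycomb repressive complex 2 (PRC2), which methylates histone H3 at repressed developmental genes, and both JARID2 and PRC2 bind RNA. The proteins encoded by the 7 genes act at different steps in the life of an RNA. HNRNPU is a nuclear scaffold protein that ties RNA to chromatin, and HNRNPH1 is a splicing regulator that binds runs of G. SFPQ and RBM14 are proteins of paraspeckles, nuclear bodies built on a long noncoding RNA, and RBM4 regulates splicing and translation. NPM1 is a histone chaperone of the nucleolus, and IGF2BP1 is a cytoplasmic protein that binds and stabilizes messenger RNAs, abundant in embryonic cells.

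The windows differed from each other in their numbers of untreated and treated sites. The Rbm4-Rbm14 window, chr19:4758000-4812000 on the minus strand, held 125 untreated and 8 treated sites. Hnrnpu, chr1:180251000-180268000 on the minus strand, held 67 and 6. Hnrnph1, chr11:50191000-50200100 on the plus strand, held 31 and 20. These 3 windows were those where the treated share of the list stood furthest from the untreated share, in opposite directions. Sfpq, chr4:126698000-126715000 on the plus strand, held 65 and 14 sites, Npm1, chr11:33052000-33063500 on the minus strand, held 44 and 10, and Igf2bp1, chr11:95818000-95867500 on the minus strand, held 43 and 14. These are raw numbers from lists of 23380 and 5348 sites, so a lower treated number alone does not show a loss of contact. In these pooled cells, fewer cells with a transcript, less of that transcript per cell and less contact per transcript cannot be told apart. Differences between the lists in read depth or in site calling cannot be told apart from these either.

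Set against the length of each list, the 6 windows together held 1.60% of untreated sites (interval 1.45 to 1.77) and 1.35% of treated sites (1.05 to 1.69). The ratio of the treated to the untreated share was 0.839 (0.643 to 1.08), an interval that includes 1. Under 3 alternatives the interval lay below 1. The ratio was 0.661 (0.484 to 0.887) without Hnrnph1, and 0.706 (0.538 to 0.918) with a raised minimum score for untreated sites. It was 0.537 (0.398 to 0.721) with the untreated list cut to its highest-scored sites, as many as the treated list holds. Over all regions with at least 10 sites, the median ratio was 0.691 with the raised minimum and 0.583 with the cut list. The windows thus stood near other regions under both. Since the windows were chosen by their sites, whether an interval includes 1 is no test of them. By window the ratio was 2.82 for Hnrnph1 (1.52 to 5.11), 0.391 for Hnrnpu (0.139 to 0.898) and 0.280 for Rbm4-Rbm14 (0.118 to 0.569). It was 0.994 for Npm1 (0.446 to 2.00), 0.942 for Sfpq (0.488 to 1.70) and 1.42 for Igf2bp1 (0.719 to 2.65), so counting error alone spans an equal share in these 3 windows.

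These ratios were read beside all 489 regions with at least 10 sites, made by joining same-strand sites of both lists that lay 10 kb apart or less. Each window held exactly 1 such region. Over the 489 regions the median ratio of shares was 0.795 (interquartile range 0.397 to 1.17). A ratio above 2 was found in 10.6% of the regions, and 1 of the 6 windows, Hnrnph1, was among them. A ratio below 0.5 was found in 36.4% of the regions, and 2 of the 6 windows, Hnrnpu and Rbm4-Rbm14, were among them. A ratio below 0.5 was thus common among these regions. The minimum of 10 sites counts both lists together, and the untreated list is the longer one. Of the 489 regions, 53 had no treated site and 0 had no untreated site. How far this minimum and small treated numbers set the 36.4% was not tested. From the highest ratio down, Hnrnph1 was 33rd of 489, Igf2bp1 94th, Npm1 176th, Sfpq 196th, Hnrnpu 372nd and Rbm4-Rbm14 400th. Since the windows were picked from these lists, the counts and ranks describe them and support nothing further.

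**Figure D1:**
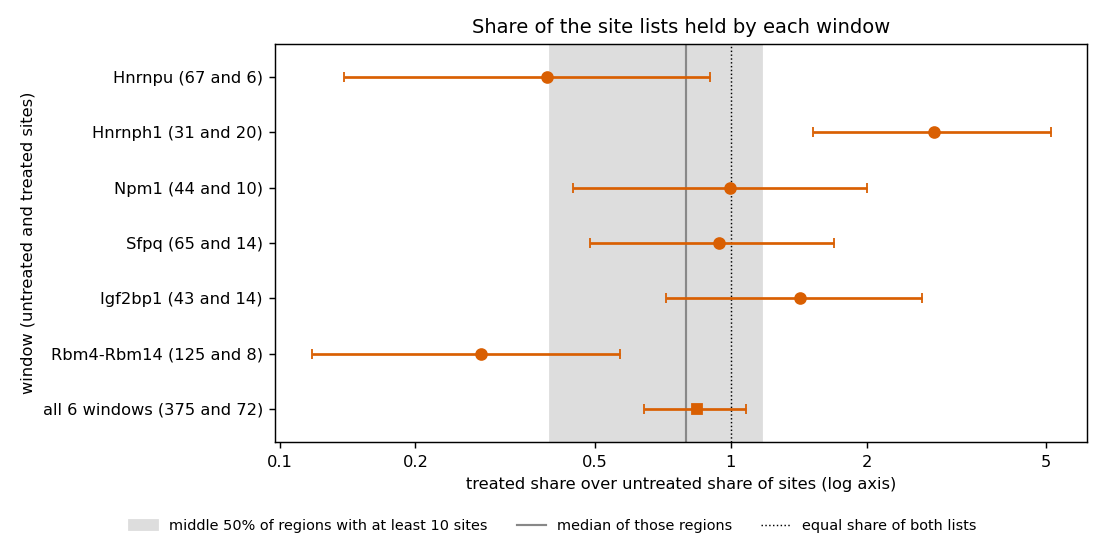
Ratio of the treated to the untreated share of listed sites, on a log axis, for each window and for all 6 together; points are ratios, bars are exact 95% intervals for counting error, the grey band is the middle 50% of the 489 regions with at least 10 sites the grey line their median and the dotted line an equal share. Hnrnph1 lies at 2.82, Hnrnpu and Rbm4-Rbm14 lie at 0.391 and 0.280, and the bars of Npm1, Sfpq and Igf2bp1 cross 1.

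The high ratio of Hnrnph1 changed with the low-scored end of the untreated list. When only the 5348 highest-scored untreated sites were kept, so that both lists were equally long, Hnrnph1 held 16 untreated and 20 treated sites, and its ratio fell to 1.25 (0.615 to 2.58). That comparison was chosen after the data were seen, and it moved the other regions too. Over the 121 regions that then held at least 10 sites the median ratio was 0.583, with 1.65% of them above 2 and 40.5% below 0.5. Npm1 lay at 0.588, Sfpq at 0.583 and Igf2bp1 at 0.778, which turned the direction of Igf2bp1 and moved the other 2 by more than 1.5 times. Hnrnpu lay at 0.20 (0.0681 to 0.488) and Rbm4-Rbm14 at 0.276 (0.109 to 0.618). When treated sites scored at least 10 were set against untreated sites scored at least 14, Hnrnph1 lay at 1.96 (1.04 to 3.62), just under a ratio of 2. That untreated minimum is the treated minimum times 1.30, the median ratio of untreated to treated score at shared sites, taken to the next whole score.

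Every site in these windows lay on the strand of the gene. The opposite strand of the 6 windows held 0 sites in the untreated list and 0 in the treated list, which allows antisense sites up to 0.80% and 4.17% of the sense number. No site of either list, on either strand, lay within 10 kb outside any window, so each window takes in a whole isolated cluster. Over the 489 regions, the opposite strand of the same span held a site in 3.27% of regions for the untreated list and 1.64% for the treated list. The absence of antisense sites was thus shared with most regions.

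The sites in these windows had scores in the middle of the lists. The median score was 24 (interquartile range 15 to 40) untreated and 28 (16.8 to 44) treated, against 17 (12 to 30) and 23 (14 to 70) in the whole lists. No site in the windows reached a score of 1000, while 508 untreated and 333 treated sites did in the whole lists. Sites scored at least 100 made up 4.27% of the windows' untreated sites, 16 in number, and 5.56% of their treated sites, 4 in number. In the whole lists such sites made up 8.09% and 20.3%. The windows therefore carried a smaller part of the score than of the sites: 0.220% of the summed score of the untreated list and 0.0680% of that of the treated list.

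Summed over the 6 windows, the score was 14500 untreated and 3199 treated, a ratio of 0.221, against 0.715 for the whole lists. The 489 regions had a median ratio of 0.180 (interquartile range 0.0669 to 0.327), so the windows stood close to other site-rich regions and below the ratio of the list totals. The summed score of Rbm4-Rbm14 was 3908 untreated and 255 treated, a ratio of 0.0653, and that of Hnrnpu 3155 and 250, a ratio of 0.0792. For Hnrnph1 it was 1322 and 726, a ratio of 0.549, higher than in 88.1% of the regions. Sfpq had 2942 and 1019, Npm1 had 1613 and 514, and Igf2bp1 had 1560 and 435, which are ratios of 0.346, 0.319 and 0.279. Summed scores were thus lower after treatment in all 6 windows. The median score per site was higher in the treated list in 4 windows, Hnrnpu, Npm1, Sfpq and Rbm4-Rbm14, and lower in Hnrnph1 and Igf2bp1. In the whole lists it was also higher after treatment, at 23 against 17, so a higher treated median is not particular to these windows.

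**Figure D2:**
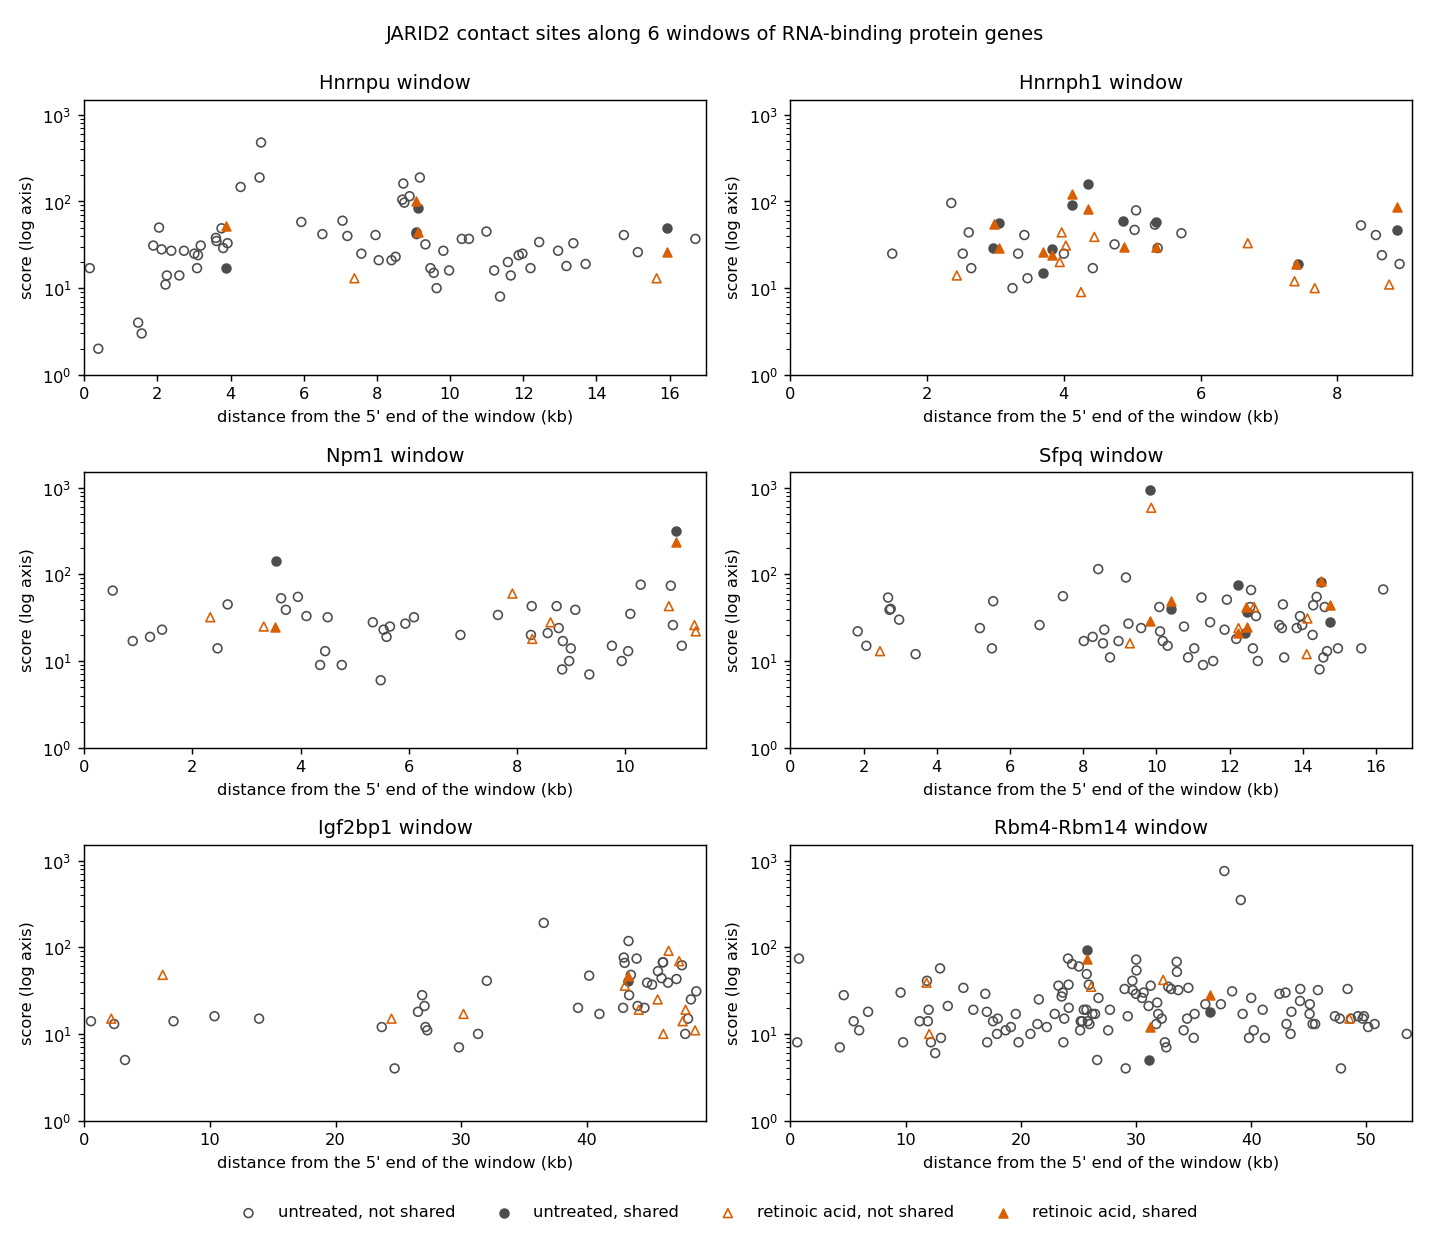
Each listed site by its distance in kb from the 5′ end of its window and by its score on a log axis; circles are untreated sites, triangles are treated sites, and filled symbols share 1 base or more with a site listed for the other condition. Untreated sites fill the windows of Hnrnpu and Rbm4-Rbm14, where 6 and 8 treated sites are listed, while the 20 treated sites of Hnrnph1 lie among its 31 untreated ones.

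Hnrnpu sites lay along nearly the whole window in untreated cells. The 67 untreated sites spanned 16.6 kb, or 97.5% of the window, at 4.04 sites per kb, with a median of 168 bases between neighbouring midpoints and a longest gap of 1.10 kb. The 6 treated sites spanned 12.1 kb and left a gap of 6.53 kb. Of the 7 untreated sites scored at least 100, 3 lay between 4.27 and 4.83 kb from the 5′ end of the window, led by chr1:180263162-180263173 with a score of 479. No treated site lay within 100 bases of that site, and the nearest was 952 bases away. The other 4 lay between 8.69 and 9.17 kb, with scores of 105, 161, 115 and 189. In this second cluster the treated list had 2 sites, chr1:180258881-180258892 with a score of 45 and chr1:180258923-180258933 with a score of 101. The first overlapped an untreated site scored 84, and the second shared 1 base with an untreated site scored 45. The stretch from 8 to 10 kb, picked after the positions were seen, held 17 of 67 untreated and 2 of 6 treated sites.

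Of the 6 treated Hnrnpu sites, 4 overlapped an untreated site. The pair at chr1:180252055-180252070 scored 50 untreated and 26 treated, and the treated site at chr1:180264126-180264138 scored 52 where the untreated site scored 17. The treated sites on Hnrnpu thus lay mostly on untreated sites, with scores above and below the untreated ones.

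Hnrnph1 was the window with the closest numbers of sites in both lists. Its untreated sites spanned 7.43 kb at 4.17 sites per kb and its treated sites 6.46 kb at 3.10 sites per kb, and the median distance between neighbouring midpoints was 147 and 127 bases. Most sites lay in the middle of the window: from 3 to 6 kb, a stretch picked after the positions were seen, there were 19 of 31 untreated sites (61.3%) and 12 of 20 treated sites (60%). That stretch held 66.8% of the untreated and 66.9% of the treated score of the window. Within and beside it the lists differed: from 3.64 to 4.55 kb there were 6 untreated and 9 treated sites, from 4.55 to 5.46 kb 7 and 2, and from 2.73 to 3.64 kb 6 and 2.

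Of the 20 treated Hnrnph1 sites, 10 overlapped an untreated site and 18 lay within 100 bases of an untreated site. The highest untreated site, chr11:50195342-50195358, scored 161, and the treated site over it scored 82. The highest treated site, chr11:50195106-50195118, scored 122, and the untreated site over it scored 91. Near the 3′ end of the window, the treated site chr11:50199872-50199884 scored 86 where the untreated site scored 47. Of the 10 pairs, 4 scored higher in the treated list, 5 lower and 1 the same. The second-highest untreated site, chr11:50193347-50193359 with a score of 96, overlapped no treated site, and the nearest, 68 bases away, scored 14. No direction in the scores ran through the 10 pairs.

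Sfpq held its sites in the 3′ part of the window. From 8 to 15 kb, a stretch picked after the positions were seen, there were 51 of 65 untreated sites and 13 of 14 treated sites, with 84.3% and 98.7% of the score. The only treated site outside it lay 2.45 kb from the 5′ end. The highest-scored site of all 6 windows was here, the untreated site chr4:126707816-126707846 with a score of 935, which carried 31.8% of the untreated score of the window. The highest treated site, chr4:126707859-126707862, scored 587 and carried 57.6% of the treated score. It was 4 bases long and lay 12 bases downstream of the untreated site without overlap, while the treated site that did overlap, chr4:126707811-126707829, scored 29. Both lists thus had their highest Sfpq score 12 bases apart, and by the 1-base criterion of overlap these highest sites are not counted as a pair. Without the highest site of each list, the summed-score ratio of Sfpq moved from 0.346 to 0.215.

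The other Sfpq sites scored lower than these, at most 115 untreated and 84 treated. Of the 14 treated sites, 7 overlapped an untreated site and 11 lay within 100 bases of an untreated site. The pair at chr4:126712507-126712517 scored 82 untreated and 84 treated, and the pair at chr4:126710212-126710231 scored 76 and 21. In the GENCODE M21 names, a transcript on the same strand, Gm12940, overlaps Sfpq, so some sites may belong to it.

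The Rbm4-Rbm14 window held the most untreated sites of the 6, and few treated ones. Its 125 untreated sites ranked 5th among all 9482 regions by untreated number, and its 8 treated sites ranked 32nd by treated number. The untreated sites spanned 53.0 kb at 2.36 sites per kb with no gap longer than 3.55 kb. The stretch from 20 to 35 kb from the 5′ end, picked after the positions were seen, held 58 of them (46.4%). Their median score was 17, and 2 reached 100: chr19:4774320-4774340 with a score of 758 and chr19:4772898-4772913 with a score of 351. Neither had a treated site within 100 bases. The nearest treated site was 1209 bases from the first and 2636 bases from the second, and it scored 28.

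The 8 treated sites of this window spanned 36.7 kb. The highest, chr19:4786223-4786239 with a score of 74, lay over the third-highest untreated site, chr19:4786224-4786233, which scored 93. Another 2 overlapped an untreated site, with scores of 28 against 18 and 12 against 5, and 6 of the 8 lay within 100 bases of an untreated site. The treated sites here thus lay mostly within 100 bases of untreated sites, but not at the highest 2 of them.

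Sites in this window could not be given to Rbm4 or Rbm14 separately, because mm9 positions of the genes were not used. In the GENCODE M21 names, a further gene on the same strand, Gm21992, overlaps both Rbm4 and Rbm14, so even with positions a site could belong to more than 1 transcript.

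Npm1 had its highest-scored site at the 3′ end in both lists. The untreated site chr11:33052546-33052558, 10.9 kb from the 5′ end of the 11.5-kb window, scored 319, and the treated site chr11:33052540-33052567 over it scored 235. The untreated site made up 19.8% of the window's untreated score, and the treated site 45.7% of its treated score. The other shared pair, at chr11:33059956-33059967, scored 144 untreated and 25 treated. The remaining 8 treated sites scored 18 to 60 and overlapped no untreated site. Of these, 2 lay 3′ of every untreated site, at chr11:33052190-33052196 and chr11:33052209-33052227, with scores of 22 and 26. The 44 untreated sites were spread over 10.5 kb with no gap longer than 1.03 kb, and the 10 treated sites left a gap of 4.39 kb in the middle of the window.

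Igf2bp1 had the most uneven spread of the 6 windows. The 20% of the window nearest its 3′ end, 9.90 kb long, held 25 of 43 untreated sites (58.1%, interval 42.1 to 73.0) and 10 of 14 treated sites (71.4%, 41.9 to 91.6). That is 2.53 untreated sites per kb, against 0.455 in the rest of the window, and 1.01 treated sites per kb against 0.101. Its share of the window's score was 71.0% untreated and 78.2% treated. Few treated sites overlapped untreated ones: 1 of 14 did, at chr11:95824243-95824250 with scores of 41 and 46, and 9 of 14 lay within 100 bases of an untreated site. Low overlap was common elsewhere too. Of the 436 regions with at least 10 sites and a treated site, 48.2% had a lower share of overlapping treated sites. The highest untreated site, chr11:95830926-95830935 with a score of 191, lay outside that stretch and 6377 bases from the nearest treated site. The highest treated site, chr11:95820993-95821002 with a score of 91, lay 28 bases from an untreated site scored 39. In the GENCODE M21 names, the microRNA gene Mir3063 overlaps Igf2bp1 on the same strand.

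**Figure D3:**
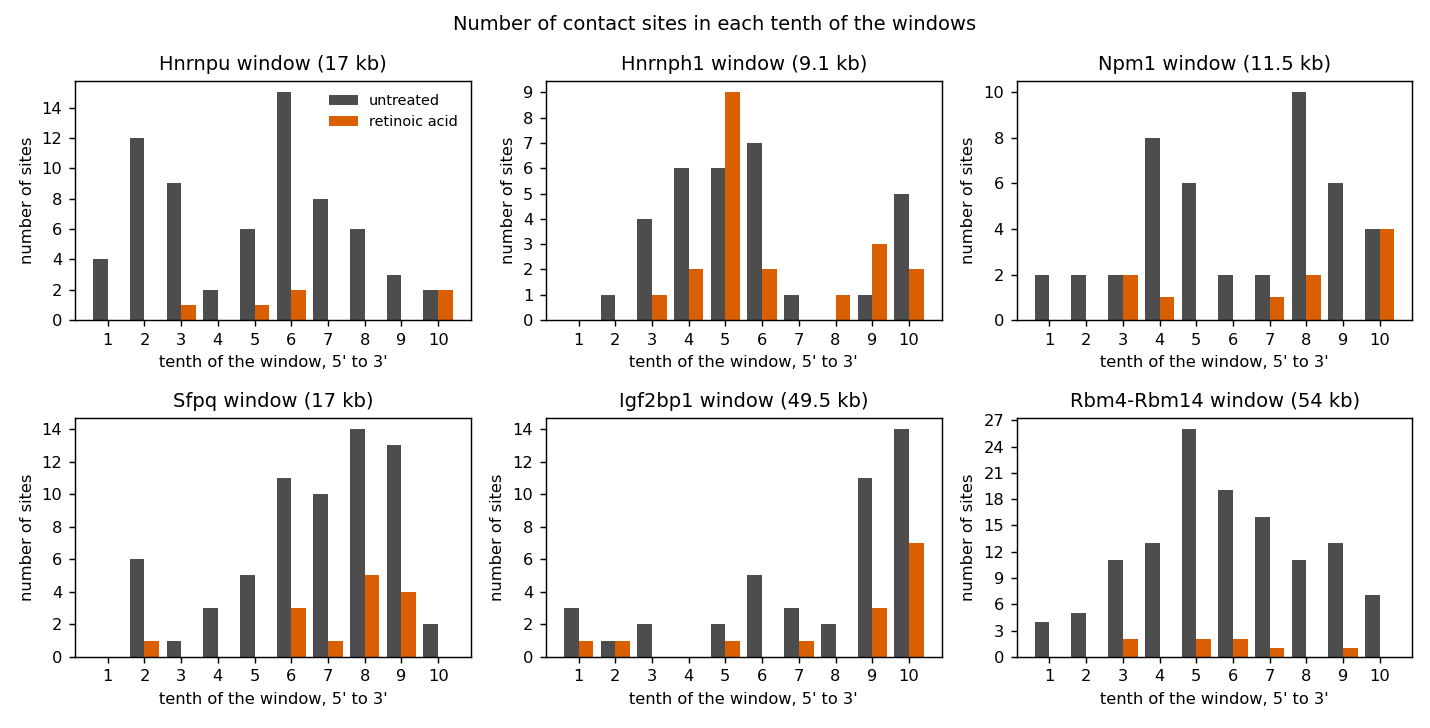
Number of sites in each 10% of a window's length from its 5′ to its 3′ end, untreated in grey and treated in orange, with 1 panel per window and its own vertical scale. The last 10% of Igf2bp1 holds 14 untreated and 7 treated sites, and the stretch of Hnrnph1 from 3.64 to 4.55 kb holds 6 and 9, the largest treated number in any bar.

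Over the 6 windows, the 20% of length at the 3′ end held 81 of 375 untreated sites (21.6%, interval 17.5 to 26.1) and 26 of 72 treated sites (36.1%, 25.1 to 48.3). The 20% at the 5′ end held 40 (10.7%, 7.73 to 14.2) and 3 (4.17%, 0.868 to 11.7). The share at the 3′ end was higher in the treated list in 5 windows and lower in Rbm4-Rbm14, where it was 16.0% and 12.5%. The treated numbers behind this were small, at 2 of 6 for Hnrnpu, 5 of 20 for Hnrnph1 and 4 of 10 for Npm1. For Sfpq they were 4 of 14 and for Rbm4-Rbm14 1 of 8. In each window the intervals of the lists overlap. The same share was not computed over the 489 regions, so it cannot be called particular to these windows. Igf2bp1 supplied 10 of the 26 treated sites, and without it the shares were 16.9% (13.0 to 21.3) and 27.6% (16.7 to 40.9). The intervals of the lists overlap both with and without Igf2bp1. Without Hnrnph1 they lie just apart, at 21.8% (17.6 to 26.5) untreated and 40.4% (27.0 to 54.9) treated. The intervals are too narrow and the windows were chosen partly by the spread of sites. Neither overlap nor its absence is therefore a test of a difference. The windows also enter the 2 lists in different proportions: Rbm4-Rbm14 supplied 125 of the 375 untreated and 8 of the 72 treated sites. The ends of the windows are not the ends of the genes, so these shares give position in the window and not in exons, introns or untranslated regions.

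A part of the treated sites in these windows lay on untreated ones, and that part differed widely between windows. Of the 72 treated sites, 27 (37.5%, interval 26.4 to 49.7) shared 1 base or more with an untreated site. Outside the windows 27.2% (26.0 to 28.4) of the treated sites did, a share that lies inside the windows' interval. By window the share was 66.7% for Hnrnpu (4 of 6), 50% for Hnrnph1 (10 of 20) and Sfpq (7 of 14), 37.5% for Rbm4-Rbm14 (3 of 8), 20.0% for Npm1 (2 of 10) and 7.14% for Igf2bp1 (1 of 14). The median share over the 436 regions with at least 10 sites and a treated site was 16.7%. Within 100 bases of an untreated site lay 53 of 72, or 73.6%, against 42.6% of the whole treated list. With an overlap of at least 50% of both sites required, the share in the windows was 18.1%. Untreated sites are dense in these windows, and how much of the sharing that density accounts for was not tested. Of the 375 untreated sites, 27 (7.20%, 4.80 to 10.3) overlapped a treated one, against 6.26% (5.95 to 6.58) outside the windows.

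Split by score, the gap in sharing was widest among treated sites scored 20 to 49. These were shared in 16 of 36 cases (44.4%, interval 27.9 to 61.9) in the windows and in 18.6% (16.7 to 20.7) outside. For scores of 10 to 19 the shares were 9.09% (2 of 22) and 6.35%. For scores of 50 to 99 it was 6 of 9 (66.7%, 29.9 to 92.5) and 50.4%, and for scores of at least 100 it was 3 of 4 and 71.5%. Among untreated sites scored at least 100 the direction was opposite. There, 4 of 16 (25.0%, 7.27 to 52.4) were shared in the windows and 43.8% (41.6 to 46.1) outside. Untreated sites scored 10 to 19, 20 to 49 and 50 to 99 were shared in 3.23%, 5.73% and 19.6% of cases in the windows. Outside these shares were 1.08%, 3.89% and 16.1%. Shared sites also scored higher than unshared ones in the windows, with medians of 47 and 23 untreated and of 42 and 22 treated.

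**Figure D4:**
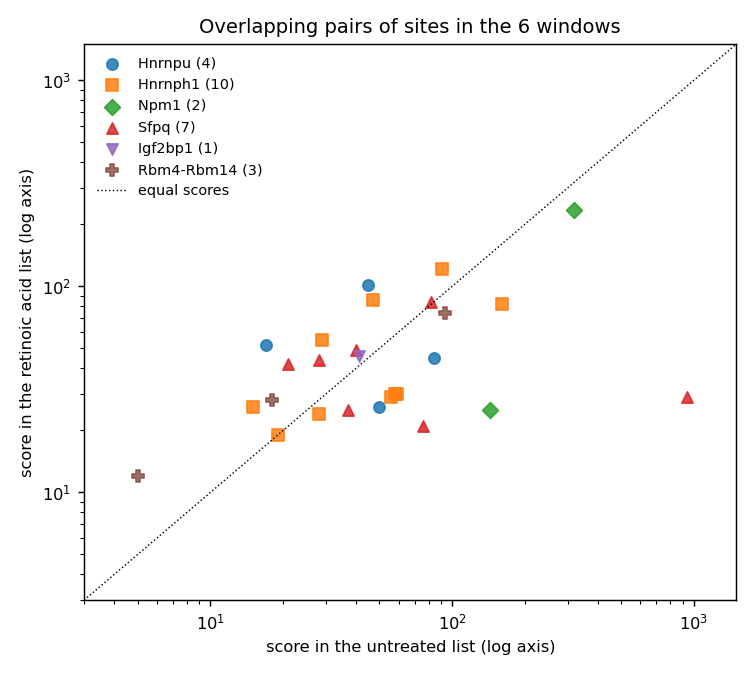
Scores of the 27 overlapping pairs of sites in the 6 windows, untreated on the horizontal and treated on the vertical log axis, with the dotted line at equal scores and the number of pairs per window in brackets. Pairs lie on both sides of the line, 13 above and 13 below with 1 on it, and the point furthest below it is the Sfpq pair scored 935 untreated and 29 treated.

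At the 27 overlapping pairs, the treated score was higher in 13, lower in 13 and equal in 1, and the median ratio of treated to untreated score was 1.00 (interquartile range 0.519 to 1.65). Over all 1514 pairs of the lists the median was 0.769 (0.476 to 1.31), with 949 lower and 552 higher in the treated list. Over the 1135 pairs of the lists whose untreated score lay between 5 and 935, the range found in the windows, it was 0.852 (0.545 to 1.44). Among these pairs the treated score thus stood about as often above as below the untreated score. A pair shares as little as 1 base and need not be the same contact listed in both conditions. Only 13 of the 72 treated sites overlapped an untreated site by at least 50% of both sites.

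For each window, the other region most like it in the 2 site numbers, by distance on the log2(sites + 1) scale, was found over the 2 lists. Hnrnpu was most like chr13:98253367-98267644 on the plus strand, with 71 and 7 sites over 14.3 kb. Rbm4-Rbm14 was most like chr7:140177558-140313795 on the minus strand, with 134 and 8 sites over 136 kb. Hnrnph1 was most like chr19:44374188-44381333 on the plus strand, with 24 and 19 sites over 7.15 kb. Npm1, Sfpq and Igf2bp1 were most like chr11:4975237-4997837 (48 and 10 sites), chr3:41359975-41420590 (73 and 11) and chr2:155973270-156005743 (46 and 13). Likeness here is in 2 numbers only, and no gene was assigned to these regions.

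The windows stood above most regions in how closely their sites were packed. With both lists counted, sites per kb were 6.86 for Hnrnph1, 5.49 for Sfpq, 5.00 for Npm1, 4.41 for Hnrnpu, 2.51 for Rbm4-Rbm14 and 1.18 for Igf2bp1, against a median of 0.829 over the 489 regions. Each site has a name in the lists with a part before a dot, and no label says what that part stands for. The 375 untreated sites had 313 such name parts and the 72 treated sites 63, so some neighbouring sites share 1 of them. The sites were short, with a median length of 13 bases untreated and 12 treated, as in the whole lists with 12 in both.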

How the data were processed

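JARID2 PAR-CLIP of E14 cells was measured in 3 untreated and 3 retinoic acid libraries. The authors deposited 1 list of sites per condition, with a whole-number score per site as its unit. No label or header used here gives the score's meaning or the program that called sites. Bowtie and mm9 are named per the submitters' processing notes.

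All sites were kept. A window took the sites wholly inside it on the sense strand, and 0 sites crossed an edge. Shares of a list have exact binomial (Clopper-Pearson) intervals, and ratios of shares have the exact interval of a ratio of 2 Poisson rates. Coordinates are mm9 and count from 1. The members, windows and lists were chosen with earlier results of these data known. The rule for naming took the 7 genes, the 3 highest-scored sites per window and list, shared sites and the region most like each window. Other named sites and stretches were picked after their values were seen. Lists of further RNA-binding protein genes and cell markers could not be placed without an mm9 annotation and were not used. Site sequences are not printed, as no mm9 genome was used. Overlap and interval functions were tested on simulated data, with 0 differences from direct comparison. The tools were scipy 1.17.1, numpy 2.4.6 and matplotlib 3.10.9, under Python 3.11.15. Alternatives are in the closing section.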

Additional observations from a re-analysis of the deposited data

How the results depend on the processing

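No paired analysis was possible because each condition has 1 list that pools its 3 libraries, so no library could be left out either. Of 52 alternative values of the summaries over the windows and regions, 38 stayed within the interval or within 1.5 times of the reported value, and of 58 for single windows 50 did. Some of these could not change, such as a minimum score set on 0 antisense sites or overlap counted on either strand. A value inside a wide interval also counts as stayed: Igf2bp1 went from 1.42 to 0.778 with equally long lists, which turned its direction. The ratio of treated to untreated share over the 6 windows, reported as 0.839, was 0.435 for scores of at least 100 (4 treated sites), 0.537 with equally long lists (chosen after the data were seen), and 1.12 without Rbm4-Rbm14, which turned its direction. For scores of at least 100, Igf2bp1 and Rbm4-Rbm14 had 0 treated sites and gave no ratio. Taking the median score per site in place of the sum turned 0.221 into 1.17, and it put the ratio above 1 in 4 windows. The median was also higher in the treated list as a whole, at 23 against 17. Sharing of treated sites, reported as 37.5%, was 18.1% when 50% of both sites had to overlap and 73.6% within 100 bases. Of 489 regions, 52 had a ratio above 2 and 178 below 0.5. These numbers were 79 and 239 of 695 regions with gaps of up to 100 kb (11.4% and 34.4%), 37 and 54 of 198 with 1 kb (18.7% and 27.3%), 11 and 62 of 186 with at least 20 sites (5.91% and 33.3%), 211 and 420 of 1159 with at least 5 (18.2% and 36.2%), and 22 and 101 of 489 at 3-fold (4.50% and 20.7%). Read depth is unknown, and 8 or fewer treated sites in Hnrnpu and Rbm4-Rbm14 limit what can be said of their positions.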
